A study of Mus musculus with 16 samples.

Results

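Early ectoderm of the chimeric mouse gastrula was described here from the 940 cells that carry the authors' label Ectoderm, which are 2.48% of the 37841 single cells analysed. The cells were chosen by that label, by the authors' quality filter and by the absence of a doublet call. The label was given from the gene expression of the cells, and a tdTomato UMI in a cell sorted as WT removed it. At embryonic day (E) 7.5 there were 757 of them, 333 WT and 424 Stat3 null. E8.5 held 60 WT and 36 null cells, and E9.5 held 38 WT and 49.

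The study injected CD1 Stat3 null embryonic stem cells (ESCs) bearing a tdTomato reporter into CD1 WT blastocysts at E3.5 and let the chimeras develop to E7.5, E8.5 or E9.5. In the donor cells an internal stretch of Stat3 exons had been replaced by a neomycin resistance gene, and what belongs to the donor line and what to the genotype cannot be told apart. Chimeras were pooled at E7.5, where they had been classed as large or small, and at E8.5, while 2 chimeras were processed individually at E9.5. Cells of each chimera or pool were sorted into tdTomato-positive cells, called null here, and tdTomato-negative cells, called WT here, which are host cells of the same chimeras, and were read as 16 libraries of droplet 3′ single-cell RNA, 8 WT and 8 null. The libraries are named A to D within a stage and genotype, and a letter is only a name. WT libraries also hold the extra-embryonic tissue that the host supplies. No label ties a library to a pool or embryo, so p-values measure only the spread between these libraries. Levels of the X-inactivation RNA Xist, given for E9.5 further on, set libraries apart but were not used to assign them. The 4 libraries of an E9.5 group share embryos, since only 2 were taken at that stage.

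Ectoderm in the gastrula is the part of the epiblast that does not pass through the primitive streak. The anterior epiblast takes this path first, shuts down its pluripotency factors step by step, and gives rise to neural plate in the middle and to surface ectoderm at its border. Sox2 and Otx2 encode transcription factors of this tissue: SOX2 is shared with the pluripotent epiblast and stays on in neural progenitors, while OTX2 is needed for the forebrain and midbrain. STAT3 is the transcription factor through which receptors that use gp130, such as the LIF receptor, act on the nucleus, and in mouse ESCs it holds up the naive pluripotency network. The comparison of null with WT Ectoderm asks whether the cells that form this tissue without STAT3 are as many, as far along and the same in gene expression as host cells of the same stage.

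Ectoderm cells were well sequenced, but unevenly spread. The E7.5 libraries WT A, WT B, null A and null B held 91, 242, 388 and 36 Ectoderm cells, whose transcripts, counted by unique molecular identifiers (UMIs), summed to between 2153946 and 15935346 per library. Median UMIs per Ectoderm cell were 32549, 30688.5, 40252.5 and 56757.5 in the same order, so null cells were read more deeply than WT cells. Levels are given in CPM, the UMIs of a gene divided by all UMIs of the Ectoderm cells of that library and scaled to 1000000, so that 1 UMI was worth 0.0628 to 0.464 CPM at E7.5. Only 8 of the 16 libraries held over 15 Ectoderm cells, the 4 of E7.5 and WT B and null B of E8.5 and WT D and null B of E9.5, and levels are given for these. No barcode occurred in Ectoderm cells of different libraries, though 10 Ectoderm cells shared a barcode with some cell of another library. A tdTomato UMI was seen in 381 of 388 and 36 of 36 Ectoderm cells of the E7.5 null libraries, and in 2 of 93 and 5 of 247 Ectoderm singlets sorted as WT, which were left out. The E8.5 library null B stood apart, with a tdTomato UMI in 22 of 32 Ectoderm cells and WT-like levels of one gene described further on.

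The levels of Sox2 and Otx2 in the labelled cells are a description and no support for the label, which was given from the same expression values. Sox2 stood at 277 CPM in WT A, 139 in WT B, 205 in null A and 107 in null B. Otx2 stood at 181, 98.4, 145 and 93.3 CPM in the same order. Among the 11 to 22 cell types with over 15 cells in a library, Ectoderm ranked between 1st and 3rd for both genes in all 4 libraries. Epiblast, the tissue of origin, was above it in the libraries where it could be measured, and in WT B extra-embryonic (ExE) ectoderm also exceeded it for Sox2 and Visceral endoderm for Otx2. The genes that stood out most over all other cells in all 4 libraries, given as a description because the label itself rests on expression, were Six3, a forebrain homeobox gene, at 6.17 times or more the level of the other cells (CPM + 1, genes of at least 20 CPM in each library), the exchange factor gene Mcf2 at 5.995 times or more and the chemokine gene Cxcl12 at 4.82 times or more. Sox3, a close relative of Sox2, came further down the order at 3.68 times or more.

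Markers of epiblast, anterior neural tissue and primitive streak differed in level among the E7.5 libraries. Pou5f1, which encodes the pluripotency factor OCT4, was still at 250 CPM in WT A, 619 in WT B, 434 in null A and 623 in null B. Hesx1, an anterior neural homeobox gene, was at 51.3, 5.35, 27.4 and 15.3 CPM, and Epiblast of null A had more of it than Ectoderm, at 40.6 CPM. T, the brachyury gene of the primitive streak, reached only 4.02, 13.5, 5.46 and 1.86 CPM, against 218 to 488 CPM in Caudal epiblast. Pou5f1 was thus lowest in WT A, where Hesx1 was highest, and the libraries of 1 genotype differed from each other in these genes as much as the genotypes did.

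**Figure D1:**
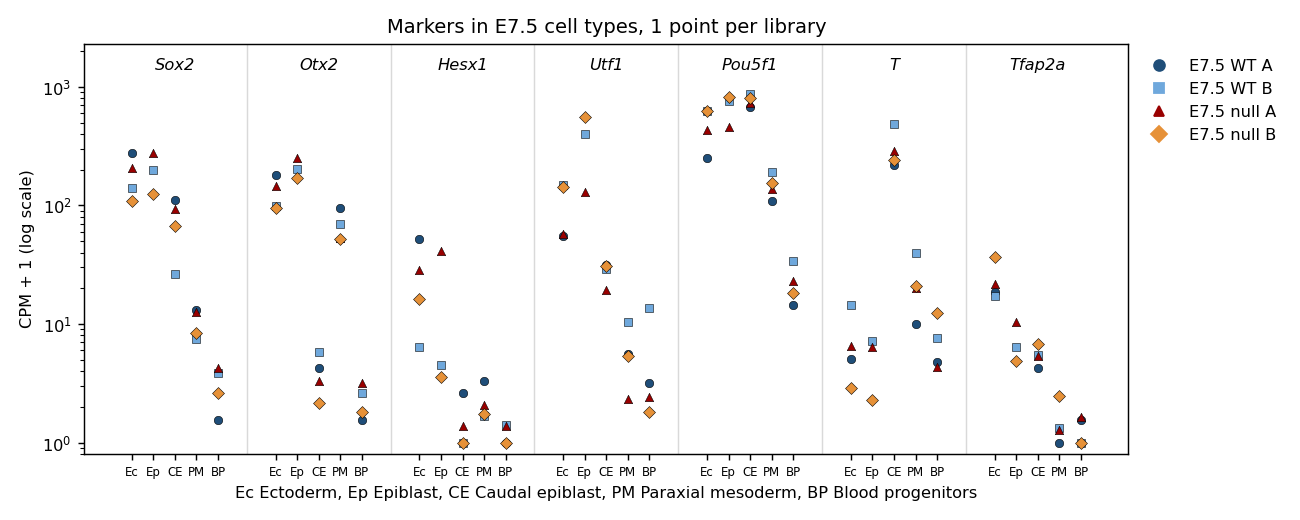
CPM + 1 on a log axis of 7 marker genes in E7.5 Ectoderm (Ec), Epiblast (Ep), Caudal epiblast (CE), Paraxial mesoderm (PM) and Blood progenitors (BP), with 1 point per library that held over 15 cells of the type. Sox2 and Otx2 are high in Ectoderm and Epiblast and at 0.544 to 3.24 CPM in Blood progenitors. Sox2 is also at 25.3 to 111 CPM in Caudal epiblast, and Otx2 at 51.5 to 94.6 CPM in Paraxial mesoderm. T, at 218 to 488 CPM in Caudal epiblast, stays at or under 13.5 CPM in Ectoderm.

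At the later stages the same label held cells with another profile. Sox2 was at 298 CPM in the 58 cells of E8.5 WT B and 196 CPM in the 32 cells of E8.5 null B, where Ectoderm ranked 7th of 53 and 7th of 23 types. At E9.5 it was at 211 CPM in both WT D and null B, a rank of 16th of 53 and 13th of 36. Otx2 was at 38.8 CPM (exact 95% Poisson interval for counting error 27.7 to 52.9) in E8.5 WT B and 83.6 CPM (65.8 to 105) in null B. At E9.5 it was at 26.8 CPM in WT D and 60.02 CPM in null B, where 1 cell held 16 of the 27 UMIs and the other 23 cells had 28.4 CPM. Pou5f1 was down to 41.7 and 27.9 CPM at E8.5 and to 3.35 and 2.22 CPM at E9.5. Pax6, a gene of the neural tube and eye, stood at 2.32 to 12.1 CPM at E7.5, at 77.7 and 30.1 CPM at E8.5 and at 78.8 and 118 CPM at E9.5. The share of nearest atlas cells that carried the label, its score, also fell, from library medians of 0.76 to 0.88 at E7.5 to 0.42 to 0.68 at E8.5 and 0.32 to 0.56 at E9.5. The few late cells are therefore called Ectoderm by their label only.

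Null cells entered the early ectoderm in numbers that did not differ from those of host cells beyond the spread between libraries. Ectoderm made up 12.6% of the cells of E7.5 WT A (95% Clopper-Pearson interval 10.3 to 15.2), 13.6% of WT B (12.02 to 15.25), 17.9% of null A (16.3 to 19.5) and 10.0% of null B (7.10 to 13.6). The WT mean of 13.1% ± 0.697 (SD, n = 2) lay between the null libraries, whose mean was 13.9% ± 5.56 (SD, n = 2). In edgeR's quasi-likelihood test over 27 cell types the log2 fold change of null over WT was −0.29 (SE 0.52, adjusted p = 0.991), with a sign that turned to 0.10 without the scaling between libraries. An exact two-sided permutation test of the shares gave p = 1, where 2 libraries against 2 cannot go below 0.333. Visceral endoderm and ExE ectoderm, which donor ESCs seldom form, took 31 and 114 cells of WT A and 71 and 167 of WT B, but 2 and 2 of null A and none of null B, and this difference in makeup enters each share. Without extra-embryonic and blood labels the log2 fold change was −0.51 (SE 0.33, edgeR adjusted p = 0.979 over 21 cell types).

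Later the label was rare in both genotypes. At E8.5 it took 0.0786% and 1.52% of the WT libraries and 0.104% and 2.79% of the null libraries, so that each genotype held 1 library almost without such cells. At E9.5 the shares were 0.0974 to 0.632% in WT (mean 0.299% ± 0.241, SD, n = 4) and 0.188 to 0.996% in null (mean 0.527% ± 0.370, SD, n = 4), where n counts libraries that share embryos, so that the tests at this stage can overstate the evidence. The groups overlapped at both stages. The log2 fold changes were 0.71 (SE 1.99, edgeR adjusted p = 1.00) at E8.5 and 0.80 (SE 0.58, edgeR adjusted p = 0.963) at E9.5. Exact two-sided permutation tests gave p = 0.667, with 0.333 the smallest possible, and p = 0.314, with 0.0286 the smallest possible. At E8.5 the sign rested on single libraries, with a log2 fold change of −0.16 without WT A and −2.91 without null B. At E9.5 it was 1.44 without WT D and 0.25 without null B, with edgeR adjusted p-values of 0.497 and 0.996.

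The atlas stage assigned to each cell from its nearest atlas neighbours varied more between libraries than between genotypes. Of the E7.5 Ectoderm cells, 18 of 91 in WT A, 212 of 242 in WT B, 210 of 388 in null A and 31 of 36 in null B mapped to atlas day 7.5. The mean mapped day was 7.79 in WT A, 7.53 in WT B, 7.66 in null A and 7.54 in null B. WT A was thus the most advanced library, WT B the least, and the null libraries lay between them. Whether a library came from large or small chimeras is not given by its name, so its part in these days was not tested. Over the 8 libraries with over 15 Ectoderm cells, the null mean minus the WT mean, averaged over stages, was −0.0200 day (p = 0.833 in an exact permutation test of the genotypes within stages, two-sided, smallest possible 0.0833). The sign changed to 0.0237 day without E7.5 WT A and to 0.000345 day without E7.5 null B. Mapping used gene expression, so the levels that follow are a description of the mapped stages.

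Within a library, cells mapped to later days had less of the epiblast program. Pou5f1 in null A was at 500 CPM in the cells mapped to day 7.5, 412 at day 7.75 and 270 at day 8.0, and in WT A at 397, 218 and 201 CPM. Utf1, a chromatin-bound factor of pluripotent cells, went from 125 to 44.7 to 22.2 CPM in WT A and from 71.4 to 49.2 to 22.8 CPM in null A. Sox1, an early neural gene, went along the same days from 1.54 to 17.3 to 24.1 CPM in WT A and from 9.01 to 10.9 to 30.1 CPM in null A. In both libraries the epiblast genes were lowest, and Sox1 highest, in the cells mapped latest.

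**Figure D2:**
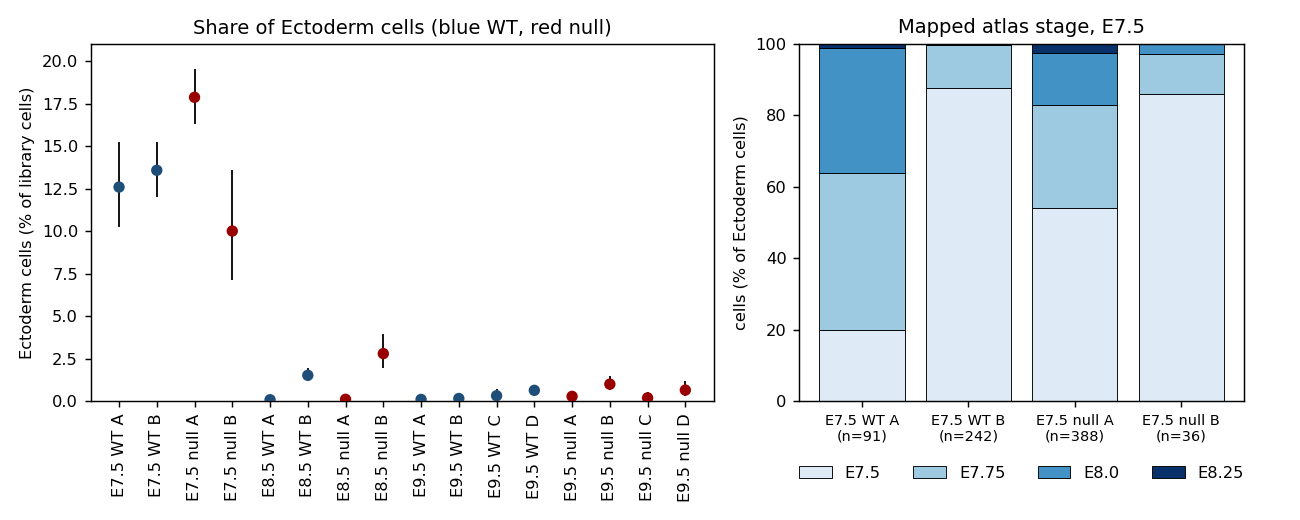
Left, Ectoderm cells as a percentage of the cells of each of the 16 libraries, with 95% Clopper-Pearson intervals (blue WT, red null). Right, the percentage of E7.5 Ectoderm cells mapped to each atlas day, where WT A has 18 of 91 cells at day 7.5 and WT B 212 of 242.

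Stat3 itself was low in this tissue. It reached 1.68 CPM in E7.5 WT A and 1.74 CPM in WT B, against 0.565 CPM (9 UMIs in 388 cells) in null A and 0 in null B. At E8.5 it was at 2.91 CPM in WT B and 0 in null B, and at E9.5 at 6.70 CPM in WT D and 0 in null B. Each null library lay below the WT libraries of its stage. The difference averaged over stages was −3.68 CPM, and the exact two-sided permutation test gave p = 0.0833, the smallest this design allows. Stat3 was too low for the test across genes. Over all cells of a library it stood at 6.14 to 9.31 CPM in WT and 1.16 to 2.53 CPM in null, and 3′ reads of a gene with an internal deletion check the genotype only in part.

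Gene expression was compared at E7.5, where both genotypes had 2 usable libraries. Of 10597 genes tested with edgeR's quasi-likelihood test on the UMIs summed per library, 18 were called, that is, had a Benjamini-Hochberg adjusted p under 0.05 and a log2 fold change of null over WT beyond 1 in size. These were 0.17% of the genes, with 5 higher in null (0.0472%) and 13 lower (0.123%). At an unadjusted p under 0.05 stood 223 genes (2.1%), 103 higher (0.972%) and 120 lower (1.13%), and 2903 genes (27.4%) had null libraries that did not overlap the WT libraries. The count depended on single libraries, with 37 genes called without WT A, 10 without WT B (6 of them among the 18), 35 without null A (12 among the 18) and 27 without null B. Without WT B the calls of Rhox5, Nr1h5, Zfp990, Akr1b8, Rnf17, Apoa1, Fam196b, Akr1e1, Hist1h2ae and Ttr were lost, and Fhitos and Apom could not be tested. The lost genes kept their direction, as in Akr1e1 at −2.71, Akr1b8 at −2.40 and Zfp990 at 1.18 on the log2 scale. Without null A the calls of Akr1b8, Akr1e1, Hist1h2ae and Apom were lost and Fhitos and Fam196b could not be tested, and with DESeq2 the calls of Akr1b8, Fhitos, Rnf17, Fam196b and Apom were lost. With 2 libraries a group the test recovered most large changes and few small ones in simulated data, at 96.9% of 8-fold, 93.8% of 4-fold and 36.4% of 2-fold changes. The simulation changed 66, 67 and 67 of 10404 genes by these folds. That is a larger share than the 0.17% called here, which can raise recovery, and 14 other genes were called falsely.

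**Figure D3:**
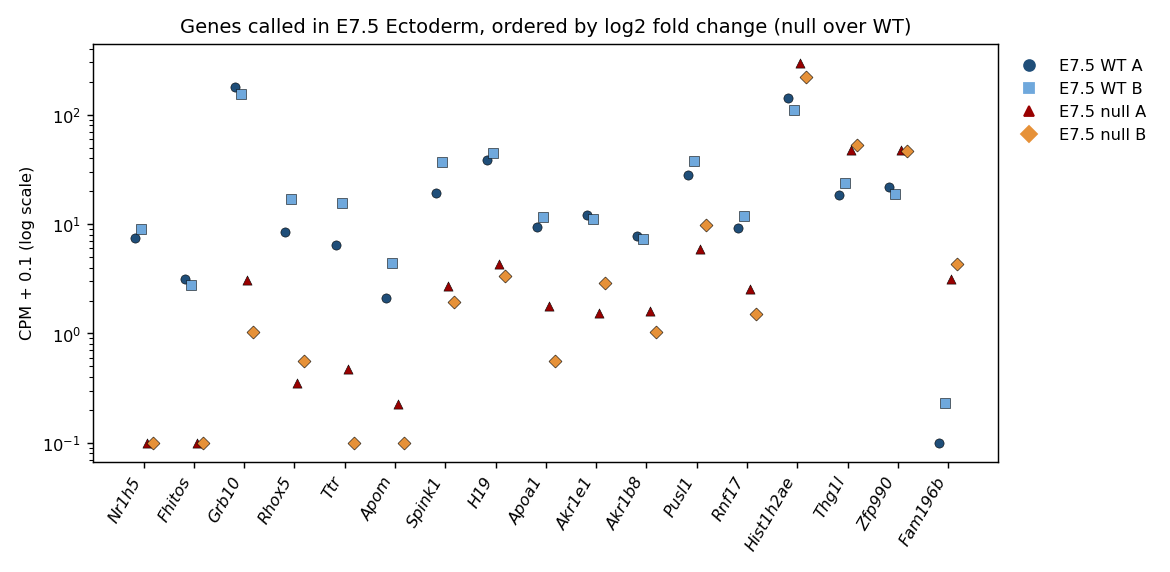
CPM + 0.1 on a log axis of 17 of the 18 genes called in E7.5 Ectoderm, ordered from the lowest to the highest log2 fold change of null over WT, with 1 point per library. In each gene both null libraries lie on one side of both WT libraries, as for Grb10 at 179 and 154 CPM in WT and 2.95 and 0.929 CPM in null.

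Imprinted genes, expressed from 1 parental copy, gave the change with the smallest p. Grb10, which encodes an adaptor that restrains insulin and growth factor receptors (ENSMUSG00000020176, minus strand of chr11:11930508-12038683, mm10), stood at 179 CPM in WT A and 154 in WT B, against 2.95 in null A and 0.929 in null B. Null over WT was −5.95 on the log2 scale (SE 0.25, edgeR adjusted p = 1.93e-08). H19, a non-coding RNA beside Igf2 (ENSMUSG00000000031, minus strand of chr7:142575529-142578143), stood at 38.6 and 44.4 CPM in WT and 4.204 and 3.25 in null, which gave −3.35 on the log2 scale (SE 0.25, edgeR adjusted p = 8.0e-06). H19 was far higher in other WT tissues, at 1482 and 1366 CPM in Visceral endoderm and 1278 and 997 CPM in Mesenchyme. Over all cells other than Ectoderm it was at 671 and 488 CPM in WT and 49.9 and 41.0 CPM in null, and what part RNA from other cells has in its Ectoderm level was not tested. The genotypes lay far apart in both genes, and the Grb10 value became −7.38 without null A. Of 48 imprinted genes listed, 35 could be tested, and these 2 were called, where 0.17% of all genes were. The median log2 fold change of the 35 was −0.11, against −0.00 over all genes tested. At an unadjusted p under 0.05 in edgeR stood 3 of the 35 higher and 3 lower, against 0.972% and 1.13% of all genes. Groups did not overlap in 14 of the 35, against 27.4% of all genes.

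The 4 other imprinted genes named here gave no such difference in E7.5 Ectoderm. Igf2, which shares its control region with H19, was at 17.4 and 9.10 CPM in WT and 16.7 and 8.36 in null. Over all cells of the E7.5 libraries it was at 129 and 89.9 CPM in WT and 192 and 208 CPM in null. Over all cells it was also higher in null at E8.5 and E9.5. In Ectoderm it was at 25.2 and 10.0 CPM in E8.5 WT B and null B, and at 184 and 336 CPM in E9.5 WT D and null B. Meg3, a maternally expressed non-coding RNA, was at 715 and 550 CPM in WT and 577 and 561 in null (log2 fold change −0.10, SE 0.14). Snrpn, a paternally expressed gene, was at 178 and 195 against 185 and 212 CPM (0.12, SE 0.15), and Peg3, also paternal, at 173 and 222 against 168 and 193 CPM (−0.11, SE 0.17). All 4 had an edgeR adjusted p of 1.00.

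The promoters of Grb10 are shown because the gene is known to be transcribed from alternative starts, depending on the parental copy and the tissue, and 3′ counting does not say which start was used. RefSeq (GRCm38.p6) gives 2 windows for the gene, each from 250 bases before to 50 after a start, both on the minus strand and written with CpG sites in capitals.
Grb10 window chr11:12037371-12037670, minus strand: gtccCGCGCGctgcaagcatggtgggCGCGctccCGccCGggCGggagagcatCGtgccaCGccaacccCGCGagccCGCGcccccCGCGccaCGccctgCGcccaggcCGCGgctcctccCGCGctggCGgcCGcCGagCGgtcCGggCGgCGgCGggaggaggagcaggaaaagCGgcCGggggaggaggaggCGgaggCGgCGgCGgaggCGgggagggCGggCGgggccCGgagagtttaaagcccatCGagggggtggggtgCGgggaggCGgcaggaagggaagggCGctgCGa
Grb10 window chr11:12027922-12028221, minus strand: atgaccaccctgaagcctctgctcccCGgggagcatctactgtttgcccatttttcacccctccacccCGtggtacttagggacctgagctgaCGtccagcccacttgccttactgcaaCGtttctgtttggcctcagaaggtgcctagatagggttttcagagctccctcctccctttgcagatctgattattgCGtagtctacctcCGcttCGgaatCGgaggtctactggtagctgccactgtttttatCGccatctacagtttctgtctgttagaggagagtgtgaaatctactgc
The first holds 45 CpG sites and is 80% G or C. The second holds 9 CpG sites and is 52.3% G or C, against a median of 21 CpG sites over 10780 windows of tested genes.

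At E7.5 Grb10 was low in the sorted donor cells of every tissue examined that held over 15 of them in a library. Below that limit, null A had 16 Grb10 UMIs in 2 Visceral endoderm cells and 6 in 2 ExE ectoderm cells. Over all cells of the E8.5 null libraries it was also low in null A, at 12.6 CPM, but not in null B, at 262 CPM. In Ectoderm cells mapped to days 7.5, 7.75 and 8.0 it was at 151, 191 and 181 CPM in WT A and at 4.16, 0.642 and 3.01 CPM in null A. Over the other E7.5 cell types with over 15 cells that were examined, it ranged from 104 to 362 CPM in WT and from 0 to 10.1 CPM in null. The 7 Ectoderm cells of null A without a tdTomato UMI had 64.4 CPM (exact Poisson interval 36.8 to 105, which covers counting error only), against 1.98 CPM in the 381 cells with one. In the same 7 cells the X-inactivation RNA Xist was at 48.3 CPM against 0.255, while H19 had 0 UMIs (interval up to 14.9 CPM) against 4.27 CPM. The cells without a tdTomato UMI thus lay toward host levels in Grb10 and Xist but not in H19. Xist was at 230 and 86.2 CPM in WT Ectoderm and 1.00 and 1.39 CPM in null Ectoderm, and what part the sex of the donor line and of the hosts has in any result was not tested.

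Among the 13 genes lower in null Ectoderm (0.123% of all genes), 5 that, of the WT tissues examined, are highest in Visceral endoderm or ExE ectoderm are described together, a grouping made after the calls were seen, in which Ttr, Spink1 and Apoa1 belong to the endoderm marker list. H19 and Rnf17, described elsewhere, were also highest in one of these tissues. Ttr, which encodes the thyroxine carrier transthyretin, was at 6.37 CPM in WT A, 15.5 in WT B, 0.377 in null A and 0 in null B (log2 fold change −5.06, SE 0.64). Spink1, a trypsin inhibitor gene, was at 19.12, 36.7, 2.64 and 1.86 CPM (−3.50, SE 0.37), and the apolipoprotein gene Apoa1 at 9.39, 11.5, 1.69 and 0.464 CPM (−2.83, SE 0.42). Apom, another apolipoprotein gene, was at 2.01, 4.28, 0.126 and 0 CPM (−4.73, SE 0.87), and Rhox5, an X-linked homeobox gene active in extra-embryonic tissue, at 8.38, 17.0, 0.251 and 0.464 CPM (−5.45, SE 0.57). The edgeR adjusted p-values were 0.00678, 0.00185, 0.00945, 0.0487 and 0.00059. Genes were named here for groups that do not overlap, as 27.4% of all genes do not, so the order of the genotypes is no further result. In all 5 genes WT B lay above WT A. The log2 fold changes moved under the alternatives in which a gene was tested. Ttr lay between −8.59 and −4.18, Spink1 between −4.07 and −2.87, and Apoa1 between −4.37 and −2.10. Apom lay between −6.82 and −4.19, and Rhox5 between −8.00 and −4.69.

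The same transcripts were found at low levels across WT tissues. Ttr was at 3.56 to 7.05 CPM in every other WT A tissue examined except Visceral endoderm and at 11.0 to 14.9 CPM in those of WT B, against 6.37 and 15.5 CPM in Ectoderm, while Visceral endoderm itself had 3885 and 4273 CPM. In WT A, Ectoderm had more Spink1 than the other embryonic types (19.12 CPM against 7.85 to 15.9) and more Apoa1 (9.39 CPM against 0.872 to 6.51). In WT B the values were close, at 36.7 CPM against 29.0 to 34.7 for Spink1 and 11.5 CPM against 8.39 to 11.4 for Apoa1. Spink1 reached 8467 and 10069 CPM, Apoa1 1604 and 2642 CPM and Apom 561 and 752 CPM in Visceral endoderm, and Rhox5 1615 and 1605 CPM in ExE ectoderm. The WT libraries held 31 and 71 Visceral endoderm cells and the null libraries 2 and 0. Of the 12 endoderm markers listed, 7 were tested and 3 called, all lower, where 0.17% of all genes were called, with a median log2 fold change of −2.38. Foxa2, a gene of definitive endoderm, was above 0 at 1.47 (edgeR adjusted p = 1.00), and Cldn6, at 50.3, 86.2, 57.2 and 94.2 CPM, was the largest part of the list. The summed level was 106 and 175 CPM in WT and 78.3 and 103 CPM in null. What part RNA from those tissues has in the 5 differences was not tested.

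**Figure D4:**
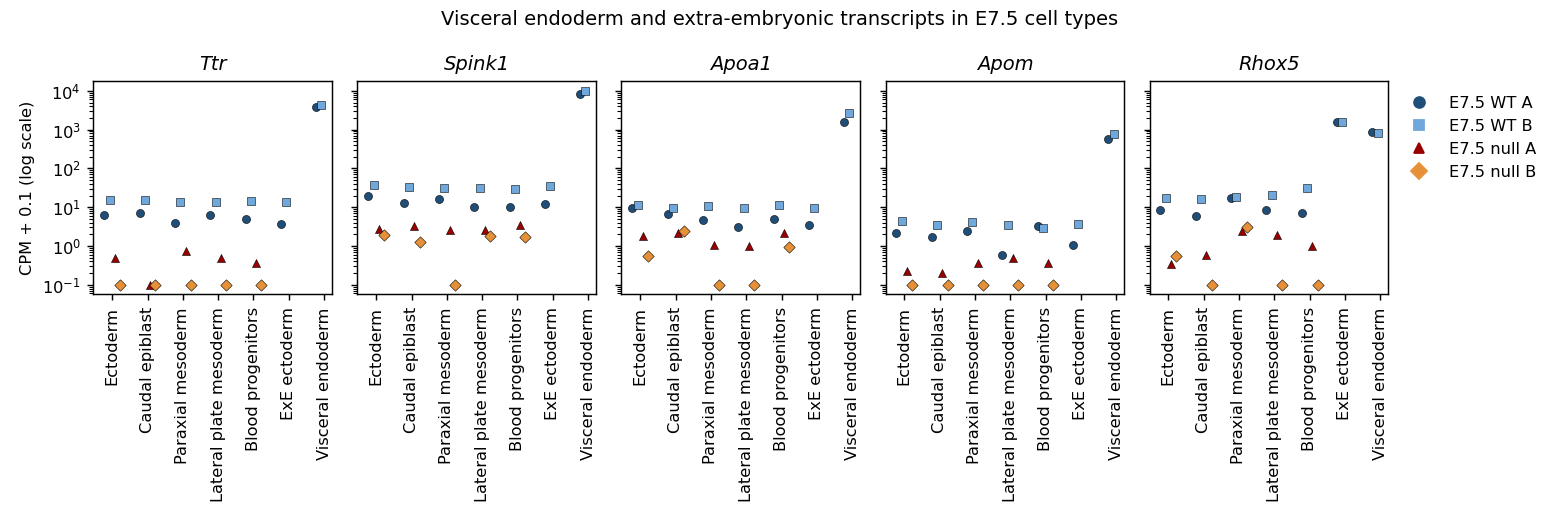
CPM + 0.1 on a log axis of Ttr, Spink1, Apoa1, Apom and Rhox5 in 7 E7.5 cell types, with 1 point per library that held over 15 cells of the type. Ttr is at 6.37 and 15.5 CPM in WT Ectoderm and at 3885 and 4273 CPM in WT Visceral endoderm.

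Among the 6 other genes lower in null Ectoderm were enzymes and a nuclear receptor. Nr1h5, which encodes the lanosterol receptor FXR beta, was at 7.38 and 8.83 CPM in WT and at 0 in both null libraries, so it was at least 50.8-fold lower against a limit of 3 UMIs over the null group (edgeR adjusted p = 0.00059). Fhitos, a transcript antisense to Fhit whose reads may be mixed with those of its partner since counting by strand is not given in the sources used here, was at 3.02 and 2.68 CPM in WT and at 0 in null, at least 16.7-fold lower (edgeR adjusted p = 0.0358). Pusl1, a pseudouridine synthase-like gene, was at 27.8 and 37.5 CPM in WT and at 5.77 and 9.75 in null (−2.25 on the log2 scale, SE 0.28, edgeR adjusted p = 0.00353). Nr1h5 was also at 7.05 and 12.3 CPM in WT and 0 in null Caudal epiblast, while WT Blood progenitors had only 0.544 and 1.64 CPM. Null cells of other kinds did hold it. E7.5 Mesenchyme had 1.89 and 3.38 CPM in WT and 1.71 and 1.47 CPM in null. Ectoderm of E9.5 WT D had 11.7 CPM (7 UMIs) and that of E9.5 null B 8.89 CPM (4 UMIs).

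The other 3 were aldo-keto reductase genes and a germ cell gene. Akr1e1, an aldo-keto reductase gene, was at 12.1 and 11.0 CPM in WT and 1.44 and 2.79 in null (−2.69, SE 0.40, edgeR adjusted p = 0.00945). Its relative Akr1b8 was at 7.71 and 7.23 against 1.51 and 0.929 CPM (−2.38, SE 0.43, edgeR adjusted p = 0.0487), a call lost in 6 of 18 alternatives. Rnf17, a gene known from male germ cells, was at 9.06 and 11.6 against 2.45 and 1.39 CPM (−2.22, SE 0.37, edgeR adjusted p = 0.0255), and at 29.6 and 33.8 CPM in WT ExE ectoderm. Reads of aldo-keto reductase genes can be shared between close copies, so their counts are less certain.

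Among the 5 genes higher in null Ectoderm were a histone gene and a zinc finger gene. Hist1h2ae, a histone H2A gene among near-identical copies, was at 143 and 110 CPM in WT and 297 and 223 in null (1.10, SE 0.17, edgeR adjusted p = 0.0122). Zfp990, a zinc finger gene in a cluster of alike genes on chromosome 4, was at 21.8 and 18.9 against 46.9 and 46.4 CPM (1.25, SE 0.19, edgeR adjusted p = 0.00945). Its neighbours by family, Zfp984, Zfp979 and Zfp985, were also above WT in both null libraries but missed the threshold, with log2 fold changes of 1.56, 1.46 and 1.53 and edgeR adjusted p-values of 0.0574, 0.113 and 0.173, and counting could split reads among these copies.

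Fam196b was barely detected, at 0 and 0.134 CPM in WT and 3.07 and 4.18 CPM in null (4.96, SE 0.91, edgeR adjusted p = 0.0487). Its call was lost in 5 of 16 alternatives, over which the log2 fold change ranged from 4.18 to 7.61. Thg1l, which encodes the enzyme that adds a guanine to the histidine tRNA (minus strand of chr11:45946843-45955494), was at 18.4 and 23.8 CPM in WT and 47.0 and 52.9 in null (1.23, SE 0.20, edgeR adjusted p = 0.0203). A window of the gene is shown because, of 12 windows searched, it alone held the STAT-type motif TTCNNNGAA, given in capitals. The 12 windows belong to the 10 called genes with a window in the table. The motif is a palindrome and was searched on both strands. The window shown lies wholly within the gene span given above. Another window of the gene, chr11:45955454-45955753, reaches the annotated 5′ end and held 0 matches.
Thg1l window chr11:45955139-45955438, minus strand: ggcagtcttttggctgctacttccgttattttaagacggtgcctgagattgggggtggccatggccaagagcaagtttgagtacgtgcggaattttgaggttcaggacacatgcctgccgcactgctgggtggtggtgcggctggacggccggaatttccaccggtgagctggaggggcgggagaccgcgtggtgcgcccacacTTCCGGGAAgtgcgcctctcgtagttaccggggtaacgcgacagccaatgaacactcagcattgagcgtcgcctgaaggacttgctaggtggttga
The match TTCCGGGAA begins 46 bases before the start on which this window is set. Such a motif was in 2726 of 32851 windows of this length (8.30%) and in a window of 657 of 8343 tested genes (7.87%), beside 1 of the 10 called genes.

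Ubb, Tmem14c and Glo1 also had an edgeR adjusted p under 0.05 but changed by less than a log2 fold of 1. Ubb, a ubiquitin gene, was at 669 and 620 CPM in WT and 1153 and 1118 in null. Glo1, the glyoxalase gene, was at 170 and 180 CPM in WT and 95.4 and 101 in null.

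None of these differences was shown to belong to Ectoderm alone. Zfp990 was at 23.3 and 17.1 CPM in WT and 49.8 and 52.6 CPM in null Caudal epiblast, and at 6.93 and 7.19 CPM in WT and 18.1 and 23.6 CPM in null Mesenchyme. Pusl1 was at 27.7 and 41.7 CPM in WT and 6.76 and 14.9 CPM in null Caudal epiblast. Thg1l in null lay above WT in all 8 cell types measured in both genotypes, with 16.3 to 28.8 CPM in WT and 39.0 to 73.5 CPM in null. The difference of the null effect between Ectoderm and another tissue was tested within libraries with limma. Against Epiblast, which gave 2 null libraries and 1 WT library, 0 of 10366 genes differed (0%), with 143 at an unadjusted p under 0.05. Against Caudal epiblast, with 2 and 2, 0 of 10020 differed (0%), with 258 at an unadjusted p under 0.05, and an edgeR interaction fit also gave 0, with 61 genes at that level against either tissue.

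Gene lists of the programs that define the tissue are given by level. Of 22 lists, 20 had no called member, which says little where 0.17% of all genes were called, and their medians of the log2 fold change lay between −0.24 and 0.16. Of 27 anterior neural and forebrain factors, 22 were tested and 0 called (median −0.12), and their summed level was 1104 and 728 CPM in WT and 961 and 675 CPM in null. Pou3f1, a POU factor of the anterior epiblast, was at 212 and 158 CPM in WT and 202 and 141 in null, and Irx3 at 144 and 164 against 197 and 126 CPM. For Sox2 the log2 fold change was −0.32 (SE 0.55) and for Otx2 −0.13 (SE 0.35), both with an edgeR adjusted p of 1.00 and with a sign that turned when single libraries were left out. Of 21 epiblast and primed pluripotency genes, 18 were tested and 0 called (median −0.01), with sums of 2257 and 3462 CPM in WT and 2590 and 3121 CPM in null. WT A, the most advanced library by mapped day, had the highest neural and the lowest epiblast sum.

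Markers of neighbouring tissues were low in both genotypes at E7.5. Of 22 primitive streak and mesoderm markers, 14 were tested and 0 called (median −0.24), with sums of 131 and 157 CPM in WT and 119 and 99.4 CPM in null. Surface ectoderm and placode markers, 14 tested of 18, had a median of 0.14 and sums of 163 and 223 CPM in WT and 190 and 287 CPM in null. Their most shifted members were Tfap2a, a factor of the neural plate border, at 17.4 and 16.3 CPM in WT and 20.6 and 35.7 in null (log2 fold change 0.69, SE 0.27), and Isl1 at 3.02 and 4.42 against 6.59 and 8.36 CPM (0.92, SE 0.37), both with an edgeR adjusted p of 1.00. Blood and endothelium markers summed to 13.4 and 12.8 CPM in WT and 35.8 and 7.43 CPM in null, and ExE ectoderm markers to 18.1 and 28.9 CPM in WT and 19.6 and 27.9 CPM in null. Later, blood and endothelium markers summed to 1273 CPM in E8.5 WT B and 352 CPM in E8.5 null B. Their sums were 1264 CPM in E9.5 WT D and 31.1 CPM in E9.5 null B. What part RNA from other cells has in late Ectoderm levels was not tested.

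The pathway of STAT3 was measured from receptor to target. Il6st, which encodes gp130, was at 17.4 and 9.10 CPM in WT and 7.28 and 8.36 in null (log2 fold change −0.69, SE 0.33, edgeR adjusted p = 1.00). The receptor genes Il6ra and Osmr had no UMI in any of the 4 libraries. Of 31 JAK-STAT pathway genes, 20 were tested and 0 called (median −0.00), and Stat5b, a relative and chromosomal neighbour of Stat3, was at 5.03 and 2.01 CPM in WT and 1.82 and 1.39 in null. Of 32 STAT targets and feedback genes, 22 were tested and 0 called (median 0.01), with sums of 1179 and 1187 CPM in WT and 1166 and 1195 CPM in null. Ccnd1, a cyclin gene, was at 169 and 152 against 173 and 187 CPM, and Birc5, a mitosis and survival gene, at 273 and 289 against 293 and 325 CPM. The naive pluripotency factors downstream of LIF, 7 tested of 13, had 0 called and a median of −0.03, with sums of 334 and 263 CPM in WT and 230 and 252 CPM in null. The sums of 5 of the 22 lists, this one among them, did not overlap between the genotypes, where 27.4% of all genes did not, so nothing is read from it.

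Lists of signalling, metabolism and cell cycle are read against the same 0.17%. FGF pathway genes had 0 of 20 tested members called (median −0.10), Wnt pathway genes 0 of 19 (−0.16), and Nodal and BMP pathway genes 0 of 17 (0.08). Fgfr1 was at 239 CPM in WT A but at 104, 153 and 103 CPM in WT B, null A and null B, and the secreted Wnt inhibitor gene Sfrp1 at 310, 142, 240 and 97.0 CPM, both highest in the library with the latest mapped days. S phase genes (30 tested), G2/M phase genes (30), p53 targets (18), nuclear subunits of oxidative phosphorylation (76), and glycolysis and hypoxia genes (34) had 0 called each, with medians of 0.03, 0.07, 0.13, 0.07 and −0.01. Gapdh, a glycolytic enzyme gene, was at 2893 and 2831 CPM in WT and 2910 and 3019 CPM in null. Lyrm7, an assembly factor gene of complex III, came nearest to a call, at 4.02 and 3.75 CPM in WT and 0.251 and 0.464 in null (−3.66, SE 0.68, edgeR adjusted p = 0.0512). DNA methylation and imprint maintenance genes, which include Zfp984 and Zfp979, had 0 of 14 called (median −0.05). The genes beside Stat3 on its chromosome, 19 tested of 35, had 0 called and a median of 0.05.

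At E8.5 and E9.5 only 1 library per genotype had over 15 Ectoderm cells, so there was no test, and exact 95% Poisson intervals cover counting error only. H19 was at 85.4 CPM (68.5 to 105) in E8.5 WT B and 1.11 CPM (1 UMI, 0.0282 to 6.21) in null B. Zfp990 was at 6.79 and 35.7 CPM, Thg1l at 22.3 and 58.0 CPM, and Pusl1 at 36.9 and 8.92 CPM in the same libraries. These 4 genes kept the E7.5 direction, with intervals that did not overlap. Grb10 did not, at 216 CPM (189 to 247) in WT B and 211 CPM (182 to 243) in null B. It was found in all 32 cells of null B, with 1 to 14 UMIs a cell and a median of 5.5, at 214 CPM in the 22 cells with a tdTomato UMI and 202 CPM in the 10 without. Over all cells of E8.5 null B it was at 262 CPM, within the 193 to 373 CPM of the 8 WT libraries, while the 7 other null libraries had 4.88 to 22.4 CPM. Leaving null B out would leave no E8.5 null library with over 15 Ectoderm cells.

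At E9.5 the comparison of WT D with null B rested in part on 1 cell. Grb10 was at 389 CPM (340 to 442) in WT D and 80.0 CPM (56.1 to 111) in null B, and H19 at 492.7 CPM (438 to 552) and 80.0 CPM (56.1 to 111). In null B, 1 cell of 62686 UMIs, where the next largest had 27193, held 27 of the 36 Grb10 UMIs, 32 of the 36 H19 UMIs and 52 of the 76 Xist UMIs, and it carried 2 tdTomato UMIs. Without that cell the other 23 had 23.2 CPM of Grb10 (10.6 to 44.1) and 10.3 CPM of H19 (2.82 to 26.5), both still under WT D. Thg1l, at 21.8 and 35.6 CPM, and Pusl1, at 20.1 and 11.1 CPM, had overlapping intervals, so that a difference was not detectable at this depth. Zfp990, at 10.1 and 8.89 CPM, also had overlapping intervals and did not keep its earlier order. Hist1h2ae was at 21.8 CPM in WT D and 202 CPM in null B, whereas at E8.5 it had been higher in WT B, at 228 against 122 CPM. Single libraries stood apart in this gene, since over all cells WT D was at 16.7 CPM against 132 to 235 CPM in the other E9.5 WT libraries, and E8.5 null B at 120 CPM against 298 CPM in null A.

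**Figure D5:**
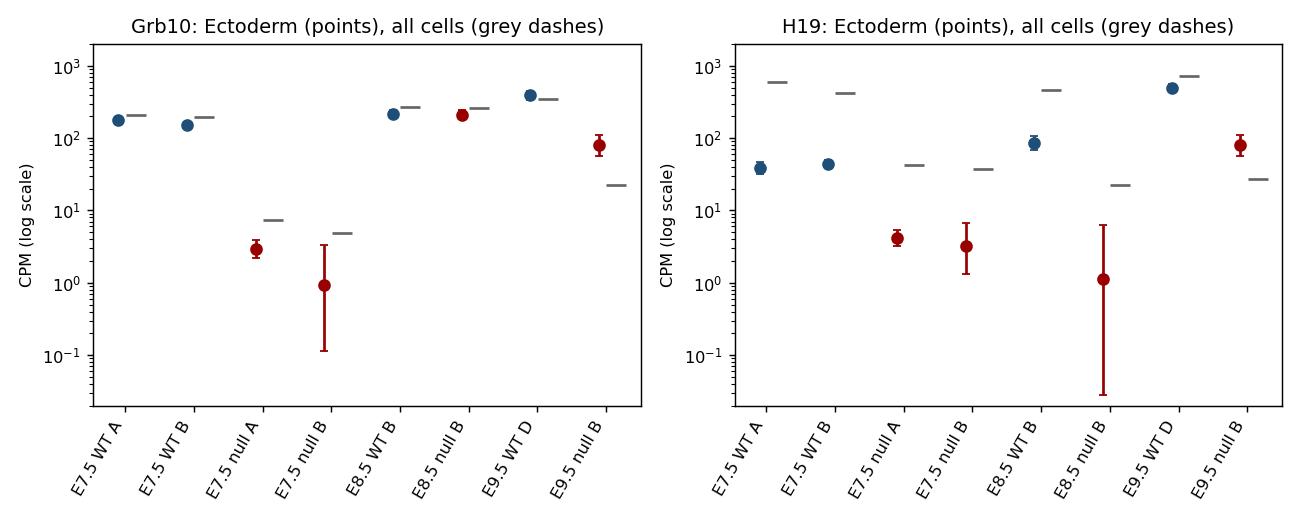
CPM on a log axis of Grb10 and H19 in Ectoderm cells (points, blue WT, red null, with exact 95% Poisson intervals) and in all cells of the same library (gray dashes), for the 8 libraries with over 15 Ectoderm cells. Grb10 is low in both E7.5 null libraries and at the WT level in E8.5 null B, where H19 is at 1.11 CPM.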

How the data were processed

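The authors mapped the reads to mm10 with Cell Ranger (per the submitters' processing notes) and deposited UMI counts per gene and cell, after limits on UMIs, genes and mitochondrial and ribosomal shares. Their table also gave, as deposited, the mitochondrial percent of UMIs, a doublet score and call, the cell type and atlas stage of the nearest atlas cells, and a label score, the fraction of those neighbours with the label. The deposited counts carry no normalization.

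Of 41832 cells, 3395 doublet calls and 596 WT-sorted singlets with a tdTomato UMI were left out, which left 37841. Groups are those of the sample labels (stage and sort), and cells were put in them by the stage and sort in the deposited table of cells, since no library name there matches a sample title. All columns with values of single samples were matched (0 left over). Counts were summed per library over Ectoderm cells, for libraries with over 15. Genes left out were the tdTomato reporter, Xist and Tsix, Y-linked genes, those of haemoglobin, ribosomal proteins and mitochondria, and predicted genes. The study also removed imprinted genes before its tests, whereas they were kept here, Grb10 and H19 among them. Then filterByExpr, TMM and the quasi-likelihood test of edgeR 4.0.16 (R 4.3.3) were used. The embryo pool of each library is not given by any label, so no block was fitted, although the study had a block for it. Ectoderm and other tissues were compared with limma 3.58.1 on log2 CPM (prior count 2), computed from the deposited counts. Tests planned for E8.5, E9.5 and for WT E8.5 against E7.5 were not run, since only 1 library per genotype had over 15 cells. Replicates of a group differed beyond sampling noise (chi-square per degree of freedom 7.82 in WT and 3.79 in null at E7.5). Alternatives were DESeq2 1.42.0, voom, other scaling, no filter, cells thinned to 10000 UMIs, other choices of cells and leaving out each library. Positions are from a GENCODE annotation of GRCm38 and promoters from RefSeq.

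The members and gene lists were chosen with earlier results of these data known. Named were Stat3, Sox2 and Otx2, the called genes whose groups do not overlap (up to 12 each way by fold), called list members, and for each list the 2 most abundant members and the 2 with the smallest p. Other genes named as context (such as Pou5f1, Hesx1, Xist, Igf2, Ubb, Glo1, Rnf17 and the Zfp98x relatives) were chosen after their values were seen. A called gene is not reported here. The scripts were tested on simulated data of 10404 genes for the E7.5 comparison, with 14 false calls.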

Additional observations from a re-analysis of the deposited data

Results flagged for a closer look

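H19 over all cells of the E9.5 null libraries had 1 library far from the rest. Null D stood at 113 CPM, against 14.3 CPM in null A, 26.9 in null B and 17.8 in null C, and the gap to the nearest library was 0.873 of the whole range, above the limit of 0.829 for 4 libraries. About 1 group in 20 would be marked so by chance, and 3 measures were examined in each of 2 groups of 4 libraries. Null D held 10 Ectoderm cells, too few for a level of this tissue, and the E9.5 Ectoderm levels given here do not use it. Over all cells, E8.5 null A was higher still, at 246 CPM of H19 against 22.6 CPM in E8.5 null B, in a group of 2 that was not examined this way.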

How the results depend on the processing

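No paired analysis was possible because no library name in the table of cells matches a sample title, so a replicate number could not be given to any library. The 18 genes called in E7.5 Ectoderm became 37 without a filter on low counts, 7 with an equal number of cells per library and 38 with the mean mapped day as a covariate (the last pair chosen after seeing the data, as were those on mapped day, label score and smaller Epiblast sums), and 10 to 37 when 1 library was left out, and the cause was not tested. The other settings gave 12 to 25 genes, among them 13 with DESeq2, 21 with voom and 13 (6 higher, 7 lower, 10 of them among the 18) with cells thinned to 10000 UMIs. Grb10, H19, Pusl1 and Spink1 kept their calls under all 20 alternatives. The log2 fold change of Sox2 lay between −0.87 and 0.22 when 1 library was left out, and that of Otx2 between −0.49 and 0.32, with 0.0436 without cells of a doublet score above 0.5, 0.0234 in cells mapped to day 7.5 and 0.0703 with the mapped day as a covariate. The E7.5 share had a log2 fold change of 0.10 without TMM factors. With 1 library left out, the E8.5 share lay between −2.91 and 3.99 and the mapped day between −0.0636 and 0.0237. The tests against Epiblast and Caudal epiblast gave 0 genes under each alternative run. Leaving out 1 library was not run for Epiblast. The smallest library, null B with 36 cells, limited the depth, since 1 UMI there was worth 0.464 CPM.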
